A study of Homo sapiens with 11 samples.

Results

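MV4-11 is an established human cell line grown from an acute myeloid leukaemia of monocytic type. Of the 11 arrays of the series, 2 came from MV4-11 cells with shRNAs against both RUNX1 and RUNX3 (shRx1+shRx3 and shRx1+shRx2+shRx3, called the joint arrays), and 2 came from knockdown cells with neither (shLuc, a luciferase shRNA, and shRx2, against RUNX2). These 4 arrays were grouped by their shRNA labels, and the comparison was chosen with earlier results of these data known. The comparison arrays were the 4 that carried only shRx1 of the 2 (shRx1 and shRx1+shRx2) or only shRx3 of the 2 (shRx3 and shRx2+shRx3). All 8 knockdown arrays came from cells that were transduced and then kept with 3 µM doxycycline for 24 hours, so the controls share the transduction and the doxycycline. The other 3 arrays, used as a separate readout, came from a 6 hour exposure to DMSO, to 1 µM Chb-M' or to 1 µM Chb-50. Each condition is 1 array of 1 line, and nothing in the labels says that arrays came from separate cultures, so each p-value reflects array-to-array spread alone, and that spread may be technical. The RUNX2 shRNA was on 1 array of each pair, so the spread within a pair includes any effect of it. The joint arrays targeted 2 or 3 RUNX genes and the neither arrays 0 or 1, so within these 4 arrays the number of genes targeted and the joint knockdown cannot be told apart.

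RUNX1, RUNX2 and RUNX3 encode transcription factors that share a DNA-binding domain, pair with the partner CBFB and read the same short DNA core. In blood cells RUNX1 is needed for stem cell formation and myeloid maturation and is mutated or fused in leukaemias, while RUNX3 acts in lymphoid and myeloid cells. Cells that enter S phase switch on E2F-driven genes for replication, and the genes of G2 and mitosis follow later under FOXM1 complexes. Monocytic maturation of a myeloid cell usually comes with integrins, Fc and leukocyte immunoglobulin-like receptors and lysosomal proteins.

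The RUNX3 transcript was lower on both joint arrays than on both neither arrays, but its difference did not pass the test. Levels are log2 array signals. RUNX3 read 7.65 on shRx1+shRx3 and 7.66 on shRx1+shRx2+shRx3, against 8.15 on shLuc and 8.24 on shRx2, a difference of -0.54 ± 0.19 (SE), or 68.9% of the level (limma adjusted p = 0.144). It read 7.76 on shRx3 and 7.87 on shRx2+shRx3, 8.37 on shRx1+shRx2 and 7.70 on shRx1, which carries no RUNX3 shRNA by its label. RUNX1 is listed only on a cluster shared with LOC100506403. That cluster read 4.03 and 3.96 on the joint arrays, 4.30 and 4.45 on the neither arrays, 4.12 on shRx1 and 4.26 on shRx1+shRx2, so shRx1+shRx2 lay above shRx3 (4.20) and shRx2+shRx3 (4.24). CBFB differed by -0.07, with the nearest joint and neither arrays both at 9.31, and RUNX2 by 0.04, with overlapping arrays; neither passed. CBFA2T3, an ETO-family corepressor, was 1 of 8 genes on the RUNX and core-binding factor list and the only 1 of them to pass, and it fell (6.38 and 6.30 against 6.80 and 6.64, -0.38 ± 0.08, limma adjusted p = 0.0366). The monocytic line held: LYZ reached 11.6, and 8 of 9 markers of such lines reached the level floor of 3.80 used for testing. Of markers of other lineages, 5 of 9 erythroid and megakaryocytic, 4 of 10 T and NK cell, 4 of 7 B cell and 2 of 9 stromal and epithelial genes reached that floor. The summed level of the 10 T and NK genes was 33.56 and 33.78 on the joint arrays against 35.15 and 36.11 on the neither arrays, and that of the 9 line markers 67.61 and 67.64 against 65.98 and 67.49; the other 3 lists had overlapping sums, and the part of either shift in the results was not tested. The T and NK list holds IL7R, the interleukin 7 receptor, which read 5.27 and 5.68 on the joint arrays and 6.91 on both neither arrays.

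Genes of DNA replication and mitosis were lower on the joint arrays, and a smaller, mixed group of genes was higher, including myeloid surface receptors and lysosomal genes. Among 12147 genes tested, 620 fell (5.1%) and 444 rose (3.66%) at a limma adjusted p under 0.05, with a median difference over all genes of 0.016. In all 1064 of these genes both joint arrays lay beyond both neither arrays. Over all genes without a test, the joint arrays lay above both neither arrays in 3690 genes (30.4%) and below both in 3151 (25.9%). By a gap of at least 0.5 between the nearest arrays, 153 genes were higher (1.26%) and 328 lower (2.7%), of which 136 and 310 also passed the test. Just inside that gap stood SMUG1 (0.5004) and RFC5 (-0.5003), and just outside NUDT22 (0.4992) and GMNN (-0.4993). No exact permutation of 2 arrays against 2 can go below p = 0.33, so the calls rest on the fit across all genes. They also rest on single arrays: the calls did not hold when shLuc or shRx1+shRx3 was left out, which leaves 1 array in that group. The direction of the 1064 genes could not reverse there, because both joint arrays lay beyond both neither arrays in each.

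Of the 620 genes that fell, many belong to lists of replication and division genes, which were chosen with earlier results of these data known. All 12 origin licensing genes, which load the MCM helicase onto DNA, were lower on both joint arrays than on all 6 other knockdown arrays. Of these 11 fell, with a median of -0.91. Over all genes 13.3% lay below all 6 and 5.1% fell. MCM3, a subunit of that helicase, read 8.35 and 8.45 on the joint arrays and 9.43 and 9.35 on the neither arrays. It read 9.42 and 9.37 with shRx3 only and 9.15 and 8.93 with shRx1 only, so the joint arrays lay below all 6 others, while the shRx3-only arrays lay within the neither range (-0.99 ± 0.09, SE, a 1.99-fold fall, limma adjusted p = 0.00517). ORC6, of the origin recognition complex, fell by 1.10 (6.20 and 6.44 against 7.51 and 7.32). GMNN, which restrains licensing, also fell, by 0.78 (from 7.75 and 7.50 on the neither arrays).

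Genes that fire origins and build the fork followed, with 27 of 32 lower and none higher (median -0.73). Of all genes tested, 5.1% fell and 3.66% rose. GINS2, part of the active helicase, read 6.29 and 6.41 on the joint arrays and 7.66 on both neither arrays, a 2.49-fold fall (-1.31 ± 0.11, limma adjusted p = 0.00517). On shRx1 it read 7.46, on shRx1+shRx2 7.17, on shRx3 7.63 and on shRx2+shRx3 7.58, so every array with 1 of the 2 shRNAs lay between the groups and nearer to neither. TICRR, a firing factor, fell by 1.30 and GINS1 by 1.29. Of the 3 subunits of the single-strand binding protein RPA, RPA1 fell by 0.44. RPA2 read 7.24 on both joint arrays against 7.39 and 7.41, RPA3 differed by -0.36, and neither passed. In deoxynucleotide synthesis 5 of 7 fell (median -0.80). TYMS, which makes thymidylate, read 7.89 and 8.21 against 9.10 on both neither arrays, TK1 fell by 0.96 and RRM2, a ribonucleotide reductase subunit, by 0.89.

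The regulators of the G1/S step moved the same way: 14 of 19 were lower and 1, CDK6, was higher (median -0.91). E2F8, a repressive E2F that is itself an E2F target, read 5.78 and 5.95 on the joint arrays and 7.57 and 7.45 on the neither arrays. All 4 arrays with 1 of the 2 shRNAs read between 7.07 and 7.50, so E2F8 stood 1.12 below its nearest other array (-1.64 ± 0.15, a 3.12-fold fall, limma adjusted p = 0.00517). E2F1, the activating member, read 5.67 and 5.96 against 7.20 and 7.15 (-1.36 ± 0.16). CCNE2, cyclin E2, read 6.32 and 6.63 against 7.88 and 8.00 (-1.46 ± 0.15). CDK6, the G1 kinase, read 9.55 and 9.60 against 9.07 and 9.15 (0.46 ± 0.09, limma adjusted p = 0.0232), and RB1 lay within 0.02 of its neither level. The list of cyclin-dependent kinase inhibitors had 0 of 5 past the test with limma. The p53 target list had 1 of 19, BAX, lower by 0.36, beside 5.1% of all genes that fell. Without a test, the joint arrays lay below both neither arrays in 4 of 5 inhibitors and above in 1. Among p53 targets they lay below in 9 of 19 and above in 4, against 25.9% and 30.4% of all genes. As these are bulk samples, fewer cells in a phase of the cycle and less transcript per cell cannot be told apart.

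**Figure D1:**
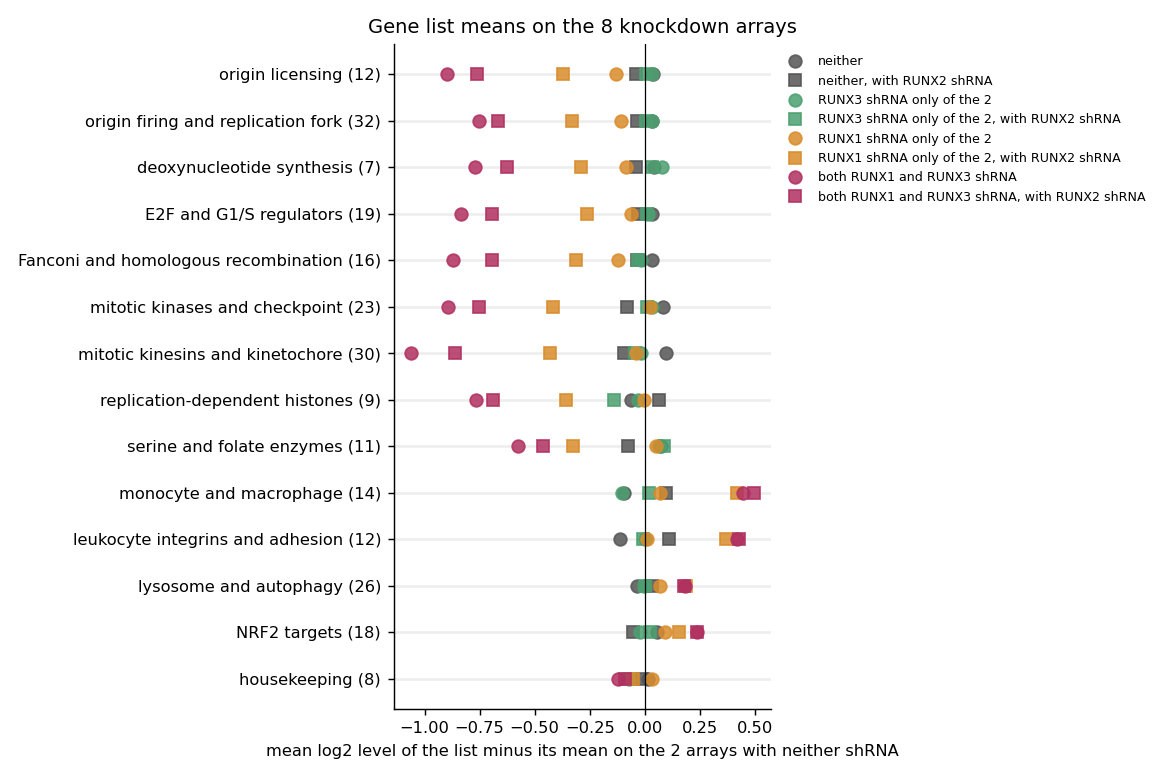
Mean log2 level of each of 14 gene lists (number of tested genes in brackets) on the 8 knockdown arrays, minus the list's mean on the 2 arrays with neither shRNA; 1 point is 1 array and squares carry the RUNX2 shRNA. Both joint arrays lie farthest left for the 9 replication, mitosis and serine lists (kinesins -1.06 and -0.86), while for monocyte, integrin and lysosome lists the shRx1+shRx2 array lies near them (monocyte 0.42 against 0.45 and 0.50).

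All 30 kinesin and kinetochore genes were lower on both joint arrays than on all 6 others, and 28 fell (median -0.96). Of all genes tested, 13.3% lay below all 6 and 5.1% fell. KIF18A, a kinesin that aligns chromosomes, read 6.34 and 6.52 on the joint arrays and 7.88 and 7.60 on the neither arrays (-1.30 ± 0.14, a 2.47-fold fall, limma adjusted p = 0.00569). CENPK and CENPI, of the inner kinetochore, fell by 1.30 and 1.24. Of 23 mitotic kinases, cyclins and checkpoint genes 18 fell (median -0.81). FOXM1, the transcription factor of G2/M genes, read 6.47 and 6.76 against 8.07 and 7.98, with 8.05 on shRx1, 7.50 on shRx1+shRx2 and 8.13 and 8.06 on the shRx3-only arrays (-1.41 ± 0.18, limma adjusted p = 0.0091). CDKN3, a phosphatase of CDK2 and CDK1, fell by 1.31 and CCNF, cyclin F, by 1.21.

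Repair genes fell more often than checkpoint genes, a difference that was not tested. Of all genes tested, 5.1% fell. In the Fanconi and homologous recombination list 14 of 16 fell (median -0.84), among them EXO1, a resection nuclease (6.24 and 6.54 against 7.69 and 7.64, -1.27 ± 0.16), and BRIP1, a helicase (-1.11 ± 0.08). FANCF was the only member whose joint arrays lay above (5.43 and 5.57 against 5.16 and 5.39), and it did not pass. In the replication checkpoint list 3 of 9 fell: CLSPN, the CHEK1 adaptor, by 1.12, CHEK1 by 1.00 and TIMELESS by 0.78. ATR, the apical kinase, read 6.64 and 6.65 against 6.70 and 6.64. Replication-dependent histones, made for S phase, fell in 6 of 9 (median -0.89). H1-5, a linker histone, read 8.41 and 8.75 against 9.80 and 9.89. Histone genes have near-identical copies, so which copy a cluster read is uncertain.

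**Figure D2:**
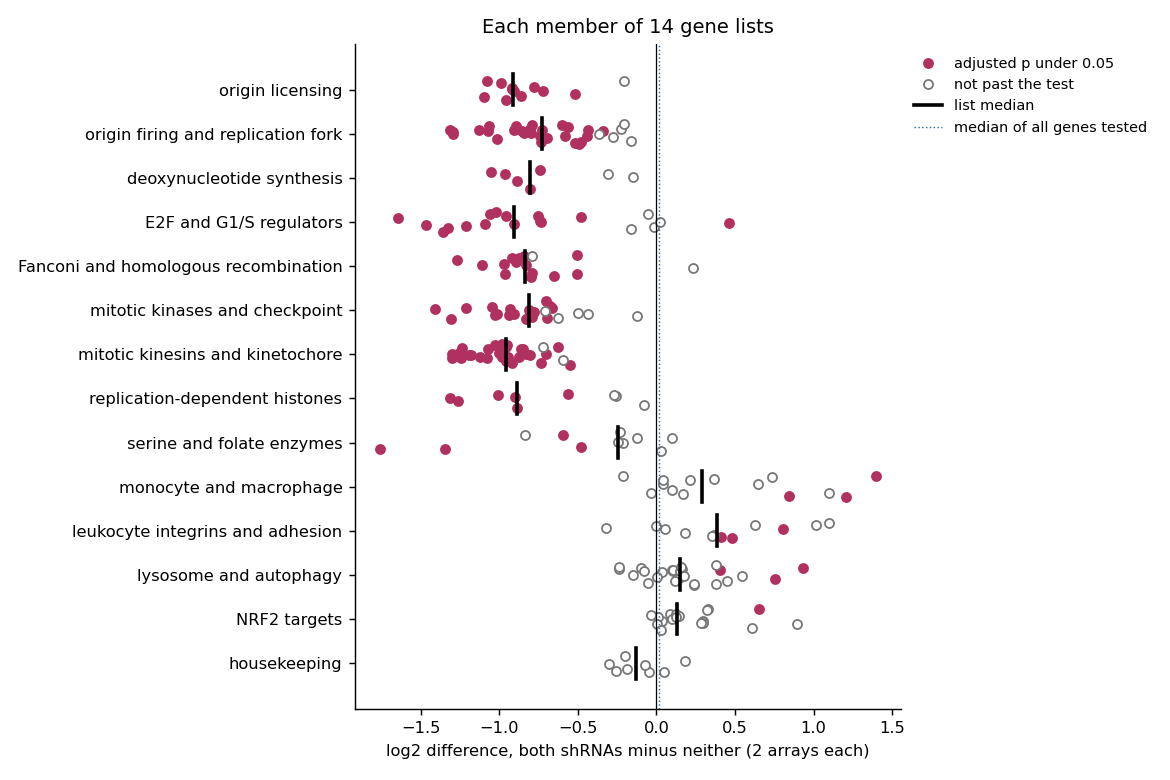
Log2 difference of each tested member of 14 gene lists, mean of the 2 joint arrays minus mean of the 2 neither arrays; filled points passed the test, black bars are list medians and the dotted line is the median of all genes tested (0.016). The kinesin list has its median at -0.96 and the integrin list at 0.39, and the vertical scatter within a row has no meaning.

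Metabolic lists moved in part, set beside 5.1% of all genes that fell and 3.66% that rose. ALDH1L2, a mitochondrial folate enzyme, read 4.99 and 4.84 on the joint arrays, 7.02 on shLuc and 6.33 on shRx2, a 3.39-fold fall (-1.76 ± 0.35, limma adjusted p = 0.0293). It also read 5.52 on shRx1+shRx2, 0.53 above the nearer joint array, but 6.60 on shRx1 and 6.76 and 6.69 on the shRx3-only arrays. PHGDH, the first enzyme of serine synthesis, fell by 1.35 and read 5.90 on shRx1+shRx2 against 5.39 and 5.62 on the joint arrays. Of 11 serine and folate genes 4 fell and none rose (median -0.24). Of 18 ATF4 targets and amino acid transporters 5 fell, among them the glutamine carrier SLC1A5 (-0.73 ± 0.08) and ASNS, asparagine synthetase (-0.82 ± 0.15), while TRIB3 and DDIT3 had overlapping arrays. In cholesterol and fatty acid synthesis 3 of 23 fell, SCD, the fatty acid desaturase (by 0.85), ACAT2 and IDI1, and TM7SF2 rose.

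Myeloid surface genes rose in smaller numbers, set beside 3.66% of all genes. In the monocyte and macrophage list 3 of 14 rose and none fell (median 0.29, but 0.098 with no level filter and 0.79 with a stricter one). LILRA2, an activating leukocyte receptor, read 6.98 and 7.10 on the joint arrays and 5.60 and 5.69 on the neither arrays, a 2.63-fold rise (1.40 ± 0.24, limma adjusted p = 0.0199). On shRx1+shRx2 it read 6.54, nearer to the joint arrays, and on shRx1, shRx3 and shRx2+shRx3 5.54 to 5.68. IGSF6 read 5.65 and 6.19 against 4.69 and 4.74, and MS4A7, a macrophage membrane protein, rose by 0.84. CD68, a macrophage lysosomal glycoprotein, read 10.3 on both joint arrays against 9.29 and 9.87, but 10.2 on shRx1+shRx2 and 9.92 on shRx1, and did not pass (limma adjusted p = 0.059). LYZ and CSF1R had overlapping arrays.

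In the integrin and adhesion list 3 of 12 rose and none fell (median 0.39), against 3.66% and 5.1% of all genes. The joint arrays lay above in 10 and below in 1, against 30.4% and 25.9% of all genes. ITGA4, the alpha 4 integrin, read 9.47 and 9.60 against 8.73 and 8.72 (0.81 ± 0.09, limma adjusted p = 0.00673), and already 8.95 to 9.22 on the 4 arrays with 1 of the 2 shRNAs. ITGAX, the alpha X integrin of monocytes, read 4.74 and 4.59 against 3.23 and 3.90, but 4.62 on shRx1+shRx2, and missed the threshold (limma adjusted p = 0.0544). Cytokine receptors rose in 3 of 15, CSF3R, the G-CSF receptor (0.60 ± 0.13), IL6R (0.39 ± 0.07) and IFNGR1. Granule proteins were mixed, with joint arrays above in 4 of 11 and below in 5 (30.4% and 25.9% of all genes). Past the test were 2, both lower: S100A9, a calprotectin subunit, read 4.69 and 4.86 against 5.24 and 5.53, and CTSG, a granule protease, fell by 0.44. The granule proteases ELANE (10.67 and 10.57 against 10.22 and 10.32, limma adjusted p = 0.0558) and PRTN3 (a difference of 0.22) and the related AZU1 (0.35) lay above on both joint arrays and did not pass. None of 14 myeloid transcription factors passed the limma test, with 4 above and 5 below (30.4% and 25.9% of all genes).

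Lysosome and autophagy genes rose in 3 of 26 (median 0.15), beside 3.66% of all genes. BECN1, the autophagy initiator, read 8.41 on both joint arrays and 7.53 and 7.43 on the neither arrays (0.93 ± 0.08, limma adjusted p = 0.00517). Its values on the 4 other arrays, 7.76 to 8.03, all lay between. PSAP, the saposin precursor, rose by 0.75 and ATP6V1A, a proton pump subunit, by 0.40. Among NRF2 targets 1 of 18 rose, GSR, glutathione reductase (8.59 and 8.70 against 7.95 and 8.04), beside 3.66% of all genes. The joint arrays lay above in 13 of 18 and below in none, against 30.4% and 25.9% of all genes. SAMD9L was the only 1 of 16 interferon-stimulated genes to rise (by 0.94), and none fell. Counts of 1 in lists of this size are close to the share of all genes that rose. VAPA, a membrane contact protein of the endoplasmic reticulum, rose by 1.24, with 8.89 and 9.20 against 7.63 and 7.97.

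Genes outside these lists had some of the widest gaps. H6PD, the pentose phosphate dehydrogenase of the endoplasmic reticulum, had the widest gap above: 5.12 and 5.17 against 3.76 and 3.75, with at most 4.29 on the other arrays (1.39 ± 0.17, limma adjusted p = 0.00793). SESN3, a sestrin stress protein, read 6.32 and 6.01 against 4.68 and 4.96. SORL1, a sorting receptor, rose by 1.35, SPOPL, a cullin 3 adaptor, by 1.13, and TPCN1, a lysosomal channel, by 0.98. Among genes that fell were DTL, the PCNA-dependent ligase subunit (-1.20 ± 0.13), MAPRE2, a microtubule end binder (7.08 and 7.12 against 8.22 and 8.26), and GPR183, an oxysterol receptor (8.27 and 8.31 against 9.52 and 9.47). Of the 444 genes that rose, 14 reached the level floor on a joint array and on none of the 6 other knockdown arrays. The floor was applied to the highest of all 11 arrays, so their rise may have been needed for them to be tested. The median genomic span was 29.0 kb for those that fell, 39.9 kb for those that rose and 27.6 kb for all protein-coding genes tested.

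**Figure D3:**
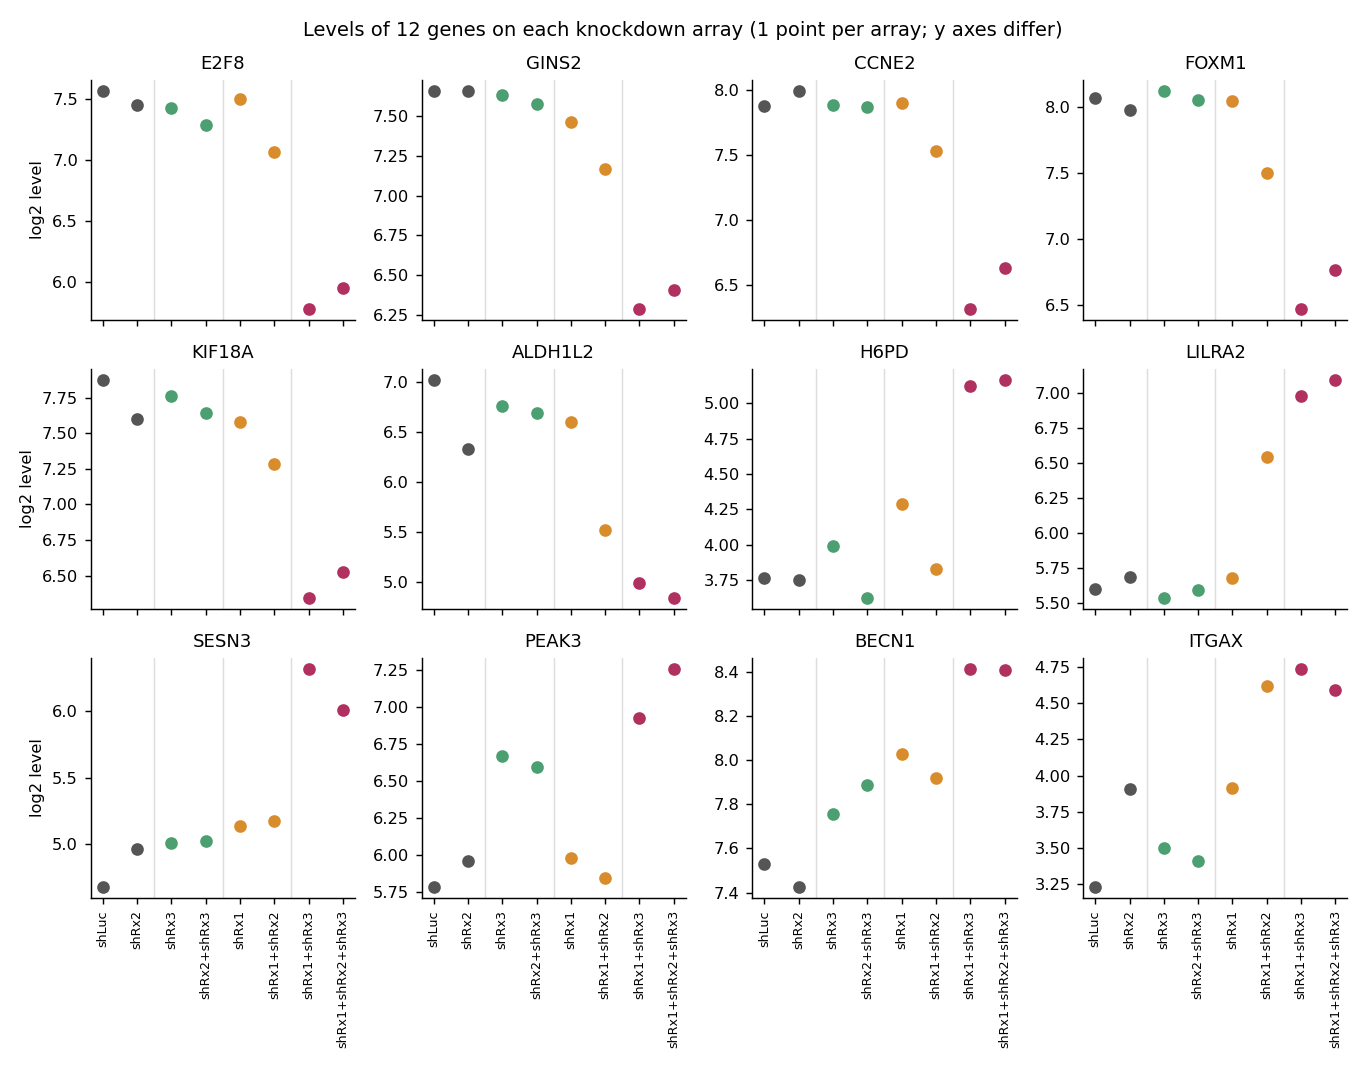
Log2 level of 12 genes on each of the 8 knockdown arrays, 1 point per array, in the order neither, shRx3 only, shRx1 only and joint. E2F8, GINS2, CCNE2, FOXM1 and KIF18A drop on the last 2 arrays, ALDH1L2, LILRA2 and ITGAX have already moved on shRx1+shRx2, PEAK3 is also high on the shRx3-only arrays, and BECN1 is intermediate on all 4 arrays with 1 of the 2.

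The arrays with 1 of the 2 shRNAs gave no calls by themselves, which does not show that nothing changed. Across genes, shRx1 minus shLuc and shRx1+shRx2 minus shRx2 had a Pearson r of 0.075. For shRx3 minus shLuc and shRx2+shRx3 minus shRx2 it was 0.12, so the 2 differences of each arm were little alike across genes. With limma no gene passed for shRx1 only against neither (0% in each direction, 862 genes at an unadjusted p under 0.05), nor for shRx3 only against neither (746). Both comparisons share the neither arrays with the joint one, so they are set side by side only. For the 620 genes that fell jointly, the median shift as a share of the joint one was 14.8% on shRx1, 39.9% on shRx1+shRx2, 1.75% on shRx3 and 6.04% on shRx2+shRx3. For the 444 that rose it was 32.3%, 42.7%, 12.2% and 15.6% in the same order. The shRx1+shRx2 array thus lay nearest to the joint arrays in both directions, though its RUNX1 cluster read 4.26 and its RUNX3 8.37.

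Tested directly against shRx1 only, the joint arrays were lower in 82 genes (0.675%) and higher in 15 (0.123%), and against shRx3 only lower in 665 (5.47%) and higher in 519 (4.27%). Of these, 79 genes were lower and 12 higher against all 3 other arms. E2F8 passed all 3 tests (limma adjusted p = 0.0335 against shRx1 only and 0.00592 against shRx3 only), as did CCNE2, FOXM1, GINS2, MCM3, KIF18A, H6PD and SESN3. LILRA2, PHGDH, ALDH1L2, ITGA4 and BECN1 did not pass against shRx1 only (limma adjusted p = 0.115, 0.191, 0.164, 0.106 and 0.0644). The calls against shRx1 only depend on the fit: with the RUNX2 shRNA as a term limma called none (2149 at an unadjusted p under 0.05). They numbered 580 without shRx1+shRx2 and 0 without each of the other 7 arrays in turn. Those against shRx3 only numbered 0 without shRx3, shRx2+shRx3 or shRx1+shRx3, 197 without shRx1+shRx2+shRx3, and 795 to 1628 otherwise. Both joint arrays lay below all 6 others in 1621 genes (13.3%) and above all 6 in 1861 (15.3%), by at least 0.5 in 89 (0.733%) and 13 (0.107%). Of the 30 kinesin and kinetochore genes 30 lay below all 6, against 0 of 14 monocyte genes below and 6 above.

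Whether the joint difference departed from the sum of the single differences was tested by the interaction contrast, and no gene passed with limma (1490 at an unadjusted p under 0.05, smallest adjusted p 0.183). Its estimate was negative for 30 of 30 kinesin and kinetochore genes (median -0.74, against 0.017 over all genes tested). These genes were read on the same arrays, so that count carries no test. For E2F8 the estimate was -1.27 ± 0.21 (SE, limma adjusted p = 0.202). SPOPL, ACSL1, BECN1 and VAPA had estimates of 0.13, 0.04, 0.10 and 0.27, with shRx1-only and shRx3-only differences of 0.59 and 0.41 for SPOPL and 0.60 and 0.48 for ACSL1. RPIA, of the pentose phosphate pathway, rose by 0.95 jointly and stood 0.72 and 0.69 above neither on the shRx1-only and shRx3-only arms, with an estimate of -0.46. PEAK3, a pseudokinase scaffold, was also high with shRx3 only (6.67 and 6.60, against 6.93 and 7.26 on the joint arrays and 5.79 and 5.96 on the neither arrays) and not with shRx1 only (5.98 and 5.85).

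The number of RUNX genes targeted was equal on shRx1+shRx2, shRx2+shRx3 and shRx1+shRx3. Among these 3 arrays shRx1+shRx3 was lowest in 33.0% of all genes tested and highest in 36.6%. It was lowest for 30 of 30 kinesin and kinetochore genes, 12 of 12 licensing genes, 30 of 32 firing and fork genes and 16 of 19 G1/S regulators. The kinesin list's median was 0.59 lower than on shRx1+shRx2 and 1.04 lower than on shRx2+shRx3. In the monocyte list shRx1+shRx3 was highest for 8 of 14, with a median 0.09 above shRx1+shRx2. These are single arrays and carry no test.

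**Figure D4:**
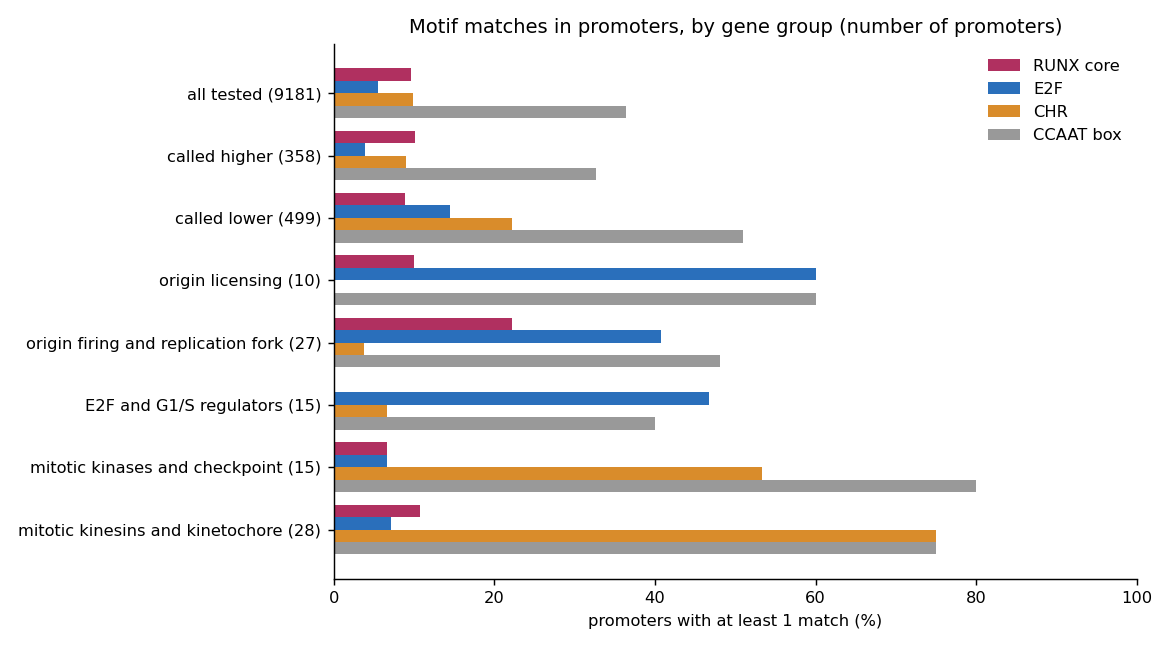
Share of RefSeq promoters with at least 1 match to each of 4 motifs, by gene group, with the number of promoters in brackets. E2F matches stand at 60% in origin licensing and CHR matches at 75% in kinesins and kinetochore, against 5.52% and 9.91% of all promoters, while the RUNX core stands at 8.82% in genes that fell and 10.1% in those that rose, against 9.65%.

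Promoters of 9181 of the 12147 genes were matched by identifier to RefSeq, build GRCh38.p14, each from 250 bases before to 50 after the start. Both strands were searched for the RUNX core TGTGGT, for the E2F words TTTGGCGC, TTTCGCGC, TTTCCCGC and TTTGCCGC, for the CHR word TTTGAA of G2/M genes and for CCAAT. Matches of different words may share bases, and each match is only a match of letters. E2F words were in 14.4% of promoters of genes that fell, 3.91% of those that rose and 5.52% of all. CHR was in 22.2%, 8.94% and 9.91%, CCAAT in 50.9%, 32.7% and 36.4%, and the RUNX core in 8.82%, 10.1% and 9.65%. By list, E2F words were in 6 of 10 licensing and 11 of 27 firing and fork promoters, and CHR was in 21 of 28 kinesin and kinetochore promoters and 8 of 15 of mitotic kinases. The RUNX core was in 3 of 10 monocyte and 2 of 19 lysosome and autophagy promoters. It was in 6 of 27 firing and fork, 1 of 10 licensing and 0 of 15 G1/S regulator promoters. In the mitotic lists it was in 3 of 28 kinesin and kinetochore promoters and 1 of 15 of mitotic kinases.

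Shown are 6 promoters picked after the values were seen, 2 of S phase genes that fell, 2 of mitotic genes that fell and 2 of genes that rose. They are E2F1 (chr20:33686336-33686635, minus strand), GINS2 (chr16:85688905-85689204, minus), CCNB2 (chr15:59104896-59105195, plus), KIF18A (chr11:28108107-28108406, minus), LILRA2 (chr19:54573540-54573839, plus) and H6PD (chr1:9239597-9239896, plus). Each is written 5′ to 3′ along the gene, with every match in capitals.
E2F1: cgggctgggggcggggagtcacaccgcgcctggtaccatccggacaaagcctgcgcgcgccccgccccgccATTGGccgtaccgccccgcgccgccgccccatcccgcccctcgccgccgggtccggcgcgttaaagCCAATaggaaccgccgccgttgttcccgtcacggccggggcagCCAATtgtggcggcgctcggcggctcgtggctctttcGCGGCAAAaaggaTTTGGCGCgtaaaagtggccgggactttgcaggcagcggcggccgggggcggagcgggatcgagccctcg
GINS2: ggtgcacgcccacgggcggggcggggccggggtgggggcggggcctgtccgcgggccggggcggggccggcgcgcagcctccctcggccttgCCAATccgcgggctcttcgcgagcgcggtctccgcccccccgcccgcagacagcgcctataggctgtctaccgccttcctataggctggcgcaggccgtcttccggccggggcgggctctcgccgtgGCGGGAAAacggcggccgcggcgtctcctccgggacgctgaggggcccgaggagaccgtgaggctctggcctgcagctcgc
CCNB2: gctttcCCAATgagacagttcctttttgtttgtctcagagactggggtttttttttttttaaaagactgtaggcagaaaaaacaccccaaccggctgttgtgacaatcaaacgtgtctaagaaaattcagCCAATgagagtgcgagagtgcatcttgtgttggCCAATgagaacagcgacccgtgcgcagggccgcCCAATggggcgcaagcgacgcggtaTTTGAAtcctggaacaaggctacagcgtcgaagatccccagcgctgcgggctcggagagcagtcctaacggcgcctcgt
KIF18A: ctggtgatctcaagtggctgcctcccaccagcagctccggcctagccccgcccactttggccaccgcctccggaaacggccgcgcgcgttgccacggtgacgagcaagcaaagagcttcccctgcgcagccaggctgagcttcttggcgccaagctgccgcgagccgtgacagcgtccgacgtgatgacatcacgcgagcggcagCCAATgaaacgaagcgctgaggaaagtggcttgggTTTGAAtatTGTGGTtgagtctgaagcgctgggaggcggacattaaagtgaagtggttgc
LILRA2: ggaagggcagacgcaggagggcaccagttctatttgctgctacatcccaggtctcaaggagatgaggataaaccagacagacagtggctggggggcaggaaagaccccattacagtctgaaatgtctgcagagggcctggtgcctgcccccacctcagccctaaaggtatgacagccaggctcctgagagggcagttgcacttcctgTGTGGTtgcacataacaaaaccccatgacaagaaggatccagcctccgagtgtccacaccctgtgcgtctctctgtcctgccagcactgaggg
H6PD: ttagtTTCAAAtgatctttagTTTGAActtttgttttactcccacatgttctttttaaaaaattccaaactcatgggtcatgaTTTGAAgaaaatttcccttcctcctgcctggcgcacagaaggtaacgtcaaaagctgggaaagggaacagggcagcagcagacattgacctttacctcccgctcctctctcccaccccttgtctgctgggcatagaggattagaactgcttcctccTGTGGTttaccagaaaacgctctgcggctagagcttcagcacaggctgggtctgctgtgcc
E2F1 held 2 E2F words, the nearer from base -20 to -13 before the start, and 3 CCAAT boxes. GINS2 held 1 E2F word, at -31 to -24. CCNB2, cyclin B2, whose level fell by 1.01, held 4 CCAAT boxes and a CHR at -29 to -24. KIF18A held a CHR at -10 to -5 and a RUNX core across the start. LILRA2 held a RUNX core at -43 to -38, and H6PD held a RUNX core at -11 to -6 with 3 CHR words farther out. The RUNX core was in 10.1% of promoters of genes that rose and 8.82% of those that fell. KIF18A, LILRA2 and H6PD are thus not typical of their groups in holding it.

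The compound arrays gave a separate readout of the same genes, without replicates or test. Chb-M' is a polyamide conjugate designed to bind the RUNX core letters, and Chb-50 was given at the same dose and time. Across the 12147 genes, the joint difference and Chb-M' minus DMSO had a Pearson r of -0.018, and genes on shared arrays are not independent replicates. The joint differences of the pairs shRx1+shRx3 minus shLuc and shRx1+shRx2+shRx3 minus shRx2, which share no array, had an r of 0.64. Of all 12147 genes, 6592 were higher with Chb-M' than with DMSO and 5399 were lower (44.4%). All 12 licensing genes, lower on the joint arrays, were higher with Chb-M' (median 0.39), as were 15 of 19 G1/S regulators (median 0.23). By contrast, 28 of 30 kinesin and kinetochore genes were lower with Chb-M' (median -0.57). CCNE2 stood 1.02 above DMSO and KIF18A 1.21 below. All 19 p53 targets were higher with Chb-M' (median 0.82), against a median of -0.12 on the joint arrays. Chb-50 minus DMSO, from the same DMSO array, had the same signs: licensing 0.22, G1/S regulators 0.13, p53 targets 0.47 and kinesins and kinetochore -0.36 (medians), with CCNE2 0.72 above DMSO and KIF18A 1.02 below. Its r with the joint difference was -0.00028, and the difference between the compounds was not tested. The genes that rose jointly had a median of -0.03 with Chb-M' and those that fell 0.03, against 0.02 over all genes.

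**Figure D5:**
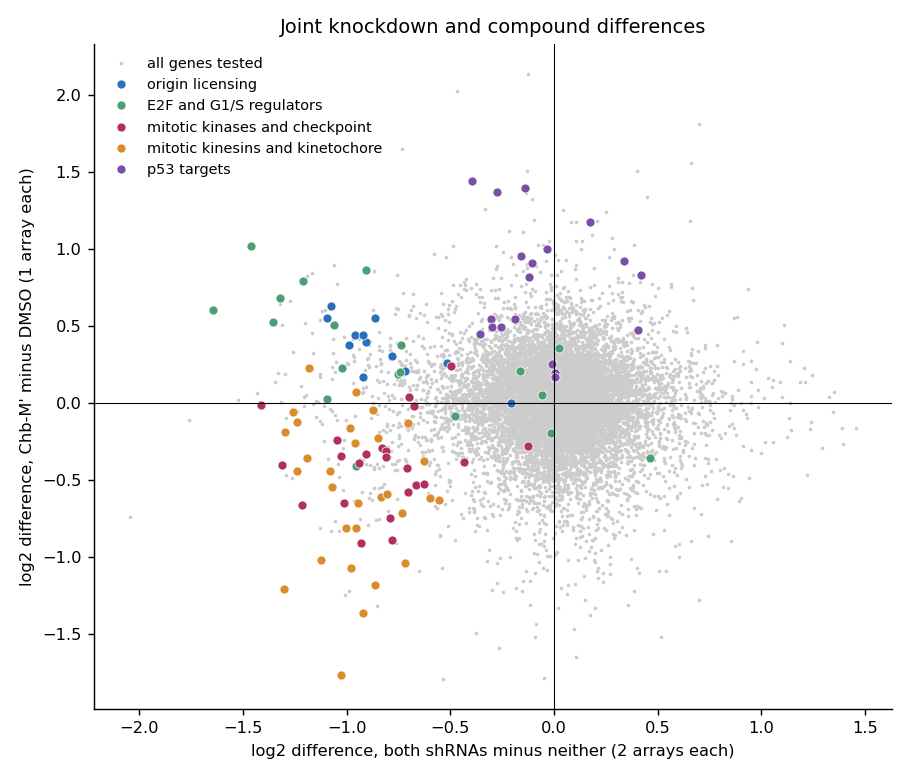
Log2 difference of Chb-M' minus DMSO (1 array each) against the joint difference (2 arrays each) for all 12147 genes tested, with 5 gene lists coloured. Licensing genes and most G1/S regulators lie at the upper left, mitotic genes mostly at the lower left and p53 targets above 0 around the middle.

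None of 8 housekeeping genes and none of 17 cytosolic tRNA synthetases passed the limma test. Without a test, the joint arrays lay below both neither arrays in 9 of 17 synthetases and above in 5. For the 8 housekeeping genes these counts were 3 and 1, and the shares of all genes were 25.9% and 30.4%. In the list of the unfolded protein response 1 of 15 rose, EDEM1 (by 0.75), and 1 fell, MANF (by 0.64), while the joint arrays lay below both neither arrays in 10 of 15 and below all 6 others in 7, against 25.9% and 13.3% of all genes. Of AP-1 and immediate early genes FOS rose by 0.66 and JUND fell by 0.47 among 15. Glycolysis genes had 1 of 16 lower, SLC2A1, a glucose carrier, by 0.38, and the BCL2 family had 1 of 12 lower, BAX. Over all genes 3.66% rose and 5.1% fell, so a count of 1 in lists of this size is close to those shares.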

How the data were processed

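RNA of 11 MV4-11 samples was read on Affymetrix arrays. The authors deposited 1 value for each transcript cluster, a probe group for 1 locus, taken here as log2 because the values run from 0.48 to 12.74. RMA, Transcriptome Analysis Console 1.0 and Affymetrix Expression Console 1.3.1 are named, per the submitters' processing notes, without roles. The genome build was not given in the sources used here. Precision is limited by the number of arrays. Of 53617 clusters, 23558 had 1 listed symbol, 2155 several and 27904 none. The brightest cluster stood for each gene, and the 12147 genes whose highest level reached 3.80, the median of 1-symbol values, were tested.

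In R 4.3.3, limma 3.58.1 (lmFit, eBayes) fitted 4 arms of 2 knockdown arrays, with 4 residual and 3.00 prior degrees of freedom. All tests were two-sided, with Benjamini-Hochberg adjustment over all genes and a threshold of 0.05. On simulated data for this comparison (12147 genes) the fit called 88% of changes of 1 log2 unit and 98% of changes of 2, with 11 unchanged genes called.

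The comparison, lists and motifs were chosen with earlier results of these data known. The genes named are RUNX2, RUNX3, CBFB and the RUNX1 cluster, the 15 widest gaps and up to 5 smallest p-values in each direction, the 5 smallest interaction p-values in each direction, and the 3 widest gaps of each list in each direction. Uncharacterised loci, pseudogenes, small RNAs and antisense genes are not named. Others named as members of small counts or as contrasts within a list (LYZ, GMNN, RPA1, RPA2, RPA3, RB1, ATR, TRIB3, DDIT3, CSF1R, IFNGR1, ATP6V1A, CCNB2 and PTX4) or for the edges of the gap (SMUG1, RFC5 and NUDT22) were chosen after their values were seen. The alternatives were a RUNX2 term, fewer or more arrays, level filters, centring, quantile normalisation, an intensity trend, averaged clusters and leaving out each array.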

Additional observations from a re-analysis of the deposited data

Results flagged for a closer look

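Clusters without a single gene name were outside the comparison, and some had joint arrays beyond both neither arrays. Of 1293 clusters listed for several genes that reached the level floor, 7 had both joint arrays at least 0.5 above both neither arrays (0.541%) and 34 at least 0.5 below (2.63%). Of 9041 clusters with no gene listed, 105 were above by that gap (1.16%) and 158 below (1.75%). The shares among tested genes were 1.26% and 2.7%, so all 4 shares were at or below those of named genes. These counts carry no test and no explanation of them was tested.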

How the results depend on the processing

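All genes that passed for joint against neither kept their direction under each alternative in which they were present, and the calls did not. Leaving out an array could not reverse a direction, because both joint arrays lay beyond both neither arrays in all of these genes. As each array was left out, genes called higher numbered 0 to 599 and lower 0 to 770, with none without shLuc or without shRx1+shRx3, 51 and 168 without shRx1+shRx2+shRx3, 122 and 182 without shRx2, and 193 and 339 without shRx3 or shRx2+shRx3. An arm left with 1 array is assumed to vary like the others. Without a level filter 211 were higher and 381 lower, and with only the 4 arrays 240 were higher (445 lower). Calls against shRx1 only numbered 0 with a RUNX2 term or no filter, 260 with a stricter filter, 473 with an intensity trend and 0 to 580 as arrays were left out. Calls against shRx3 only numbered 612 with no filter and 0 to 1628 as arrays were left out. Without shRx1+shRx2, 1 gene, PTX4, passed for shRx1 only against neither and for the interaction; these counts ranged from 0 to 1. At a gap of at least 0.3, 524 genes were higher and 690 lower, and at 1, 5 and 36. Why a count moved was not tested. Over named genes, 2557 of 2946 values kept their status, called or not called, while 314 lost a call and 75 gained one. A value called in neither fit counts as kept, whatever its sign. Of 559 list medians, 34 moved beyond the spread of arrays, and the kinesin median lay between -1.07 and -0.84. No paired analysis was possible because all arrays carry the replicate number 1, so the groups share fewer than 2 numbers. The RUNX2 shRNA, on 1 array of each arm, can pair them instead: with it as a term, 429 genes were higher and 562 lower for joint against neither.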
